A study of Sus scrofa with 8 samples.

Results

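The genes described here are the fibroblast growth factor (FGF) receptors FGFR1, FGFR2, FGFR3 and FGFR4, the ligand FGF2, and 5 genes that ERK signalling is known to switch on, namely DUSP6, SPRY2, SPRY4, ETV4 and ETV5. They were chosen by symbol, and each had 1 named identifier, so that the set holds 10 of the 24358 identifiers in the pig count table. An FGF ligand binds its receptor tyrosine kinase together with heparan sulfate, and the receptor then acts through the adaptor FRS2 and through GRB2 and SOS on RAS, RAF, MEK and ERK. Active ERK raises the transcription of ETV transcription factors and of its own inhibitors, among them the phosphatase DUSP6 and the Sprouty proteins, and for this reason these transcripts are commonly read as a record of recent ERK activity. In mouse pluripotent cells FGF and ERK signalling favours exit from the naive state, and naive media often contain an inhibitor of MEK.

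RNA-seq compared IRF-1 overexpressing pig induced pluripotent stem cells (piPSCs, replicates 1 and 3) with control piPSCs (replicates 6 and 8), called IRF-1 and control libraries below, to ask how raised IRF-1 alters the transcriptome. According to the methods, DOX-hLIF-2i piPSCs came from fibroblasts with an OCT4-tdTomato reporter and doxycycline-inducible reprogramming factors, and were transfected with Flag-tagged IRF1 behind the constitutive CAG promoter or with the empty Flag vector, then selected with puromycin. The methods place both groups in medium with LIF, doxycycline, the GSK3 inhibitor CHIR99021 and the MEK inhibitor PD0325901, whereas the sample labels name an LCDMV culture system, and feeder cells were depleted by a short plating step before RNA extraction. The genotype label was IRF-1 overexpression for all 4 libraries, so the groups follow the study's own assignment of the library numbers, and how many lines or cultures the libraries came from was not stated. The p-values below therefore measure the spread between these libraries, which may be technical.

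The libraries held 24923319 and 20858333 counts in the IRF-1 replicates 1 and 3, and 15925429 and 17097669 counts in the control replicates 6 and 8. A count of 3 or fewer in a library was taken as the floor, which is between 0.12 and 0.188 CPM (counts scaled to library size) and covers counting error only. IRF1 itself had 8206 and 5485 counts in the IRF-1 libraries against 55 and 56 in the controls, so it was high in both libraries assigned to overexpression and low in both controls. Of the marker genes for pluripotent cells, DNMT3B had between 10849 and 25707 counts in a library and NANOG between 5 and 11, while LIN28A had 4071 and 3875 counts with IRF-1 overexpressed and 7905 and 6677 in the controls.

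Of the 10 genes, 8 passed the filter on low counts, and at an adjusted p under 0.05 in edgeR's quasi-likelihood test 5 were lower and 1 was higher in the IRF-1 overexpressing cells. The background was wide, since 15.5% of the 13250 genes tested were lower and 13.9% were higher by the same rule. With a minimum size of 1 for the log2 fold change also required, 4 of the 10 were lower and 1 was higher, against 10.6% lower and 8.61% higher among all genes tested. The 2054 lower and 1842 higher genes behind these shares became 845 and 788 without IRF-1 replicate 1. The genes that fell were the 4 receptors and FGF2, and the gene that rose was SPRY2. In bulk RNA, fewer cells that express a gene and less of its RNA per cell cannot be told apart.

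**Figure D1:**
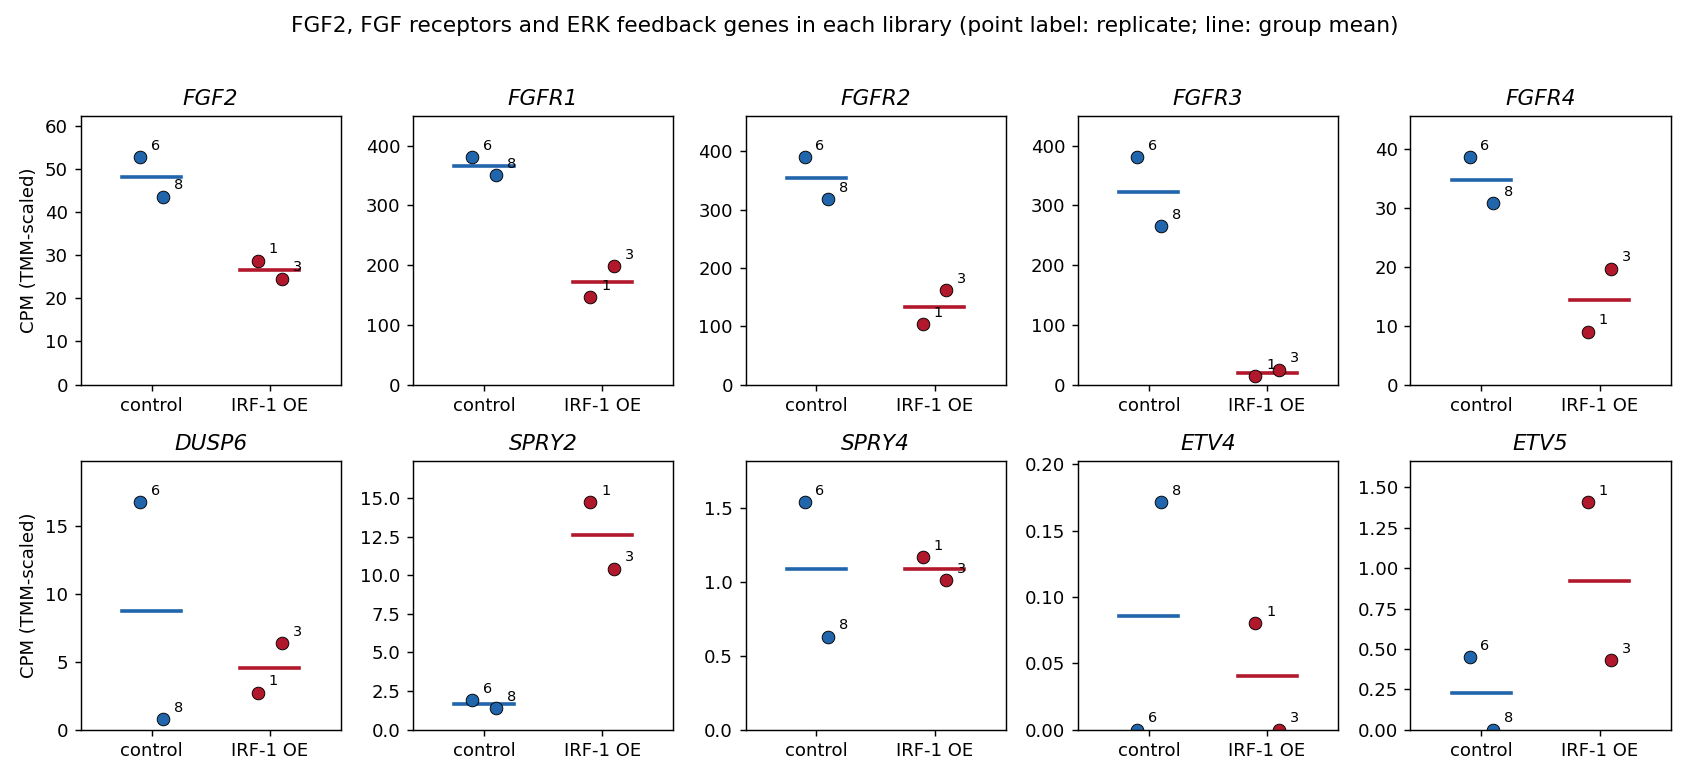
Level of each of the 10 genes in each library, in CPM on a linear axis that starts at 0 and differs between panels; points are libraries labelled with their replicate number and lines are group means. FGF2 and the 4 receptors lie lower in both IRF-1 IRF-1 libraries than in both controls, SPRY2 lies higher, and DUSP6 ranges from 14 to 262 counts within the control group.

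FGF2 encodes a secreted ligand that is widely used to maintain primed pluripotent cells. FGF2 (ENSSSCG00000036213, chromosome 8, 101282308 to 101343916, minus strand) had 715 and 511 counts in the IRF-1 replicates 1 and 3, and 825 and 763 counts in the control replicates 6 and 8. After scaling for depth these were 28.8 and 24.6 CPM against 52.8 and 43.6 CPM, with both IRF-1 libraries below both controls. Its log2 fold change was -0.85 (SE 0.177, 95% interval -1.26 to -0.44, adjusted p = 0.01 in edgeR). Without IRF-1 replicate 3 the value was -0.74 and no longer passed the threshold, with an adjusted p of 0.0697, while the adjusted p lay between 0.00561 and 0.0697 over all the fits that left out 1 library. FGF2 shares 807 exon bases, or 26.8% of its exon length, with NUDT6 on the opposite strand, and reads from that stretch cannot be assigned without strand. NUDT6 itself had 164 and 166 counts in the IRF-1 libraries and 180 and 152 in the controls, which after scaling averaged 7.29 CPM against 10.1 CPM and did not pass the test (adjusted p = 0.242 in edgeR). Its mean thus differed in the same direction as that of FGF2.

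FGFR1 and FGFR2 encode the receptors that bind FGF2 in many cell types, with splice forms that set which ligands they take. FGFR1 (ENSSSCG00000015815, chromosome 15, 48053367 to 48106860, plus strand) had 3639 and 4114 counts in the IRF-1 libraries and 5948 and 6137 counts in the controls. The controls lay above both IRF-1 libraries although these were sequenced more deeply, and the mean of 2 libraries with its SD was 366 ± 21.1 CPM in the control group and 172 ± 36.3 CPM in the IRF-1 group. The log2 fold change of FGFR1 was -1.09 (SE 0.172, 95% interval -1.49 to -0.69, adjusted p = 0.00336 in edgeR). FGFR2 (ENSSSCG00000010698, chromosome 14, 131181713 to 131289414, minus strand) had 2577 and 3377 counts in the IRF-1 libraries against 6100 and 5565 in the controls. Its mean, again with the SD of 2 libraries, was 354 ± 51.1 CPM in the control group and 133 ± 41.4 CPM in the IRF-1 group, which gave a log2 fold change of -1.41 (SE 0.225, 95% interval -1.94 to -0.89, adjusted p = 0.00345 in edgeR). For both genes the groups did not overlap, and within the IRF-1 group replicate 1 was the lower library. Gene-level counts do not separate the splice forms of these receptors. FGFR1 shares 91 exon bases with an unnamed gene on the same strand that had between 6 and 14 counts, and no shared exon bases were found for FGFR2.

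FGFR3 had the largest change among the 8 genes tested, also in each alternative run. This receptor is best known for its role in growth plate cartilage. FGFR3 (ENSSSCG00000030827, chromosome 8, 879207 to 895912, plus strand) had 348 and 519 counts in the IRF-1 libraries against 5953 and 4638 counts in the controls. Both control libraries were far above both IRF-1 libraries, with a mean and SD of 323 ± 81.9 CPM against 19.5 ± 7.74 CPM over 2 libraries each, so that the control mean was 16.6 times the other. The log2 fold change was -4.05 (SE 0.314, 95% interval -4.79 to -3.32, adjusted p = 0.00027 in edgeR), and it lay between -4.53 and -3.69 when each library was left out in turn. FGFR3 shares no exon bases with another gene.

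FGFR4 (ENSSSCG00000014047, chromosome 2, 80841543 to 80853791, minus strand), the receptor that serves FGF19 in liver with the co-receptor KLB, had 223 and 410 counts in the IRF-1 libraries against 604 and 540 in the controls. The groups did not overlap, but the IRF-1 libraries stood apart from each other at 8.98 and 19.7 CPM, while the controls were at 38.7 and 30.9 CPM. For FGFR4 the log2 fold change was -1.28 (SE 0.345, 95% interval -2.08 to -0.48, adjusted p = 0.0274 in edgeR). Without IRF-1 replicate 1 it was -0.81 with an adjusted p of 0.0984, without IRF-1 replicate 3 it was -1.95 with an adjusted p of 0.00204, and without control replicate 6 it was -1.11 with an adjusted p of 0.0652. Over these fits, the call of FGFR4 thus rested on 2 of the libraries. FGFR4 shares 59 exon bases with an unnamed gene on the same strand that had 0 counts in all 4 libraries.

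Levels of different genes were compared per kilobase of exon, as FPKM (CPM divided by exon length). In control replicate 6 the FPKM level was 77.7 for FGFR2, 62.5 for FGFR3, 56.8 for FGFR1 and 8.68 for FGFR4. In control replicate 8 it was 63.4 for FGFR2, 52.3 for FGFR1, 43.5 for FGFR3 and 6.93 for FGFR4. FGFR2 led and FGFR4 came last in both controls, while FGFR1 and FGFR3 changed places and so did not differ beyond the spread between libraries. In the IRF-1 replicates 1 and 3, FGFR1 was at 21.8 and 29.5 FPKM and FGFR2 at 20.7 and 32.3 FPKM, with neither ahead in both. FGFR3 at 2.30 and 4.09 FPKM and FGFR4 at 2.02 and 4.43 FPKM also changed places between these libraries. The order among the receptors thus differed between the groups in the place of FGFR3, which stood beside FGFR1 in the controls and beside FGFR4 in the overexpressing cells.

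The summed FPKM level of the 4 receptors was 46.8 and 70.3 in the IRF-1 replicates 1 and 3 and 206 and 166 in the control replicates 6 and 8. FGFR3 made up 4.91% and 5.82% of that sum in the IRF-1 libraries and 30.4% and 26.2% in the controls. The share of FGFR1 was 46.7% and 41.9% against 27.6% and 31.5%, and that of FGFR4 lay between 4.17% and 6.29% in the 4 libraries. Per length, the ratio of FGFR3 to FGFR1 was 0.105 and 0.139 in the IRF-1 libraries and 1.10 and 0.832 in the controls. On the log2 scale the mean ratio differed by -2.99 between the groups, and the 95% intervals of the fold changes of FGFR3 and FGFR1 given above did not overlap. An exact two-sided permutation test of 2 libraries against 2 cannot give a p under 0.333, so none is read from it here.

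**Figure D2:**
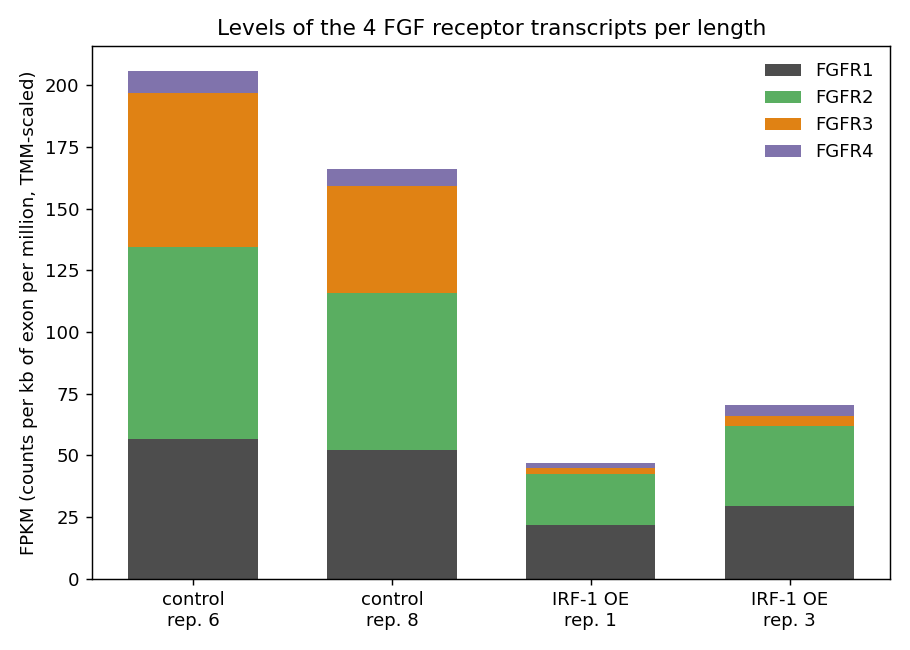
Stacked bars, from 0, of the FPKM level of FGFR1, FGFR2, FGFR3 and FGFR4 in each library. The sums are 206 and 166 in the controls and 46.8 and 70.3 in the IRF-1 overexpressing cells, and the FGFR3 segment shrinks from 30.4% and 26.2% of the sum to 4.91% and 5.82%.

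SPRY2 encodes a Sprouty protein that restrains signalling from receptor tyrosine kinases to ERK. SPRY2 (ENSSSCG00000009482, chromosome 11, 52154493 to 52155440, minus strand) had 366 and 217 counts in the IRF-1 libraries against 30 and 24 counts in the controls. Both IRF-1 libraries were well above both controls, at 14.7 and 10.4 CPM against 1.92 and 1.37 CPM. The log2 fold change was 2.94 (SE 0.347, 95% interval 2.13 to 3.74, adjusted p = 0.00109 in edgeR), so SPRY2 moved in the direction opposite to the receptors and FGF2. Per length, SPRY2 was at 15.5 and 11 FPKM in the IRF-1 libraries, above the 9.57 and 8.17 FPKM of FGF2 in the same libraries. In the controls it was at 2.03 and 1.45 FPKM, below the 17.6 and 14.5 FPKM of FGF2. The gene model of SPRY2 has 948 exon bases and that of FGF2 has 3007, of which 807 are shared with NUDT6. The order of these genes per length therefore depends on the gene models. SPRY2 shares no exon bases with another gene, and its call held in each fit that left out 1 library, with log2 fold changes between 2.67 and 3.19.

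SPRY4, a second Sprouty gene, was low in all libraries. SPRY4 (ENSSSCG00000036322, chromosome 2, 143877340 to 143891285, minus strand) had 29 and 21 counts in the IRF-1 libraries and 24 and 11 in the controls. The values overlapped between the groups, with control replicate 6 the highest and control replicate 8 the lowest after scaling. For SPRY4 it was 0.02 on the log2 scale (SE 0.545, 95% interval -1.24 to 1.29, adjusted p = 0.98 in edgeR), an interval that leaves room for a change of more than 1 on the log2 scale in either direction. The rise of SPRY2 was therefore not accompanied by a detectable difference in SPRY4 at this depth, and the difference between the 2 genes was not tested.

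DUSP6 encodes a cytoplasmic phosphatase that removes phosphate from ERK and whose transcription follows ERK activity closely. DUSP6 (ENSSSCG00000037910, chromosome 5, 93303519 to 93309678, plus strand) had 68 and 133 counts in the IRF-1 libraries, 262 counts in control replicate 6 and 14 counts in control replicate 8. The controls lay on either side of the IRF-1 libraries, at 16.8 and 0.8 CPM against 2.74 and 6.39 CPM. For DUSP6 the log2 fold change was -0.94 (SE 1.02, 95% interval -3.31 to 1.42, adjusted p = 0.528 in edgeR). Without control replicate 6 it was 2.50 with an adjusted p of 0.0267, and without control replicate 8 it was -1.88 with an adjusted p of 0.0152, so the direction was set by which control was kept. The adjusted p ranged from 0.0152 to 0.862 over the fits that left out 1 library and from 0.165 to 0.904 over the other alternatives. DUSP6 shares 400 exon bases with an unnamed gene on the opposite strand, ENSSSCG00000035067, which had 39 and 30 counts in the IRF-1 libraries and 80 and 9 in the controls. That gene thus varied between the controls in the same sense, and without strand its reads and those of DUSP6 cannot be told apart in the shared stretch.

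That DUSP6 differs between the controls was known when the genes were chosen, so its gap is given as a description. The log2 ratio of control replicate 6 to control replicate 8, with 0.5 CPM added, was 3.73 for DUSP6, and 5 of the 10210 tested genes that averaged 5 CPM or more, DUSP6 included, had a ratio of that size or larger. The median size of this ratio over the same genes was 0.22. The other genes in that group of 5 were FOS, EGR1, EGR2 and JUN, which were chosen after their values were seen and which encode immediate-early transcription factors induced by ERK and other kinases. FOS had 5777 counts in control replicate 6 and 33 in control replicate 8, against 658 and 1162 in the IRF-1 libraries. EGR1 had 8151 counts in control replicate 6 and 69 in control replicate 8, against 1375 and 2627. As for DUSP6, both IRF-1 libraries lay between the controls for each of these genes. For JUN the controls held 3693 and 174 counts against 1968 and 1135, and EGR2 had 289 and 4 counts against 14 and 19. The genes whose scaled levels lay nearest to DUSP6 over the 4 libraries were DUSP1 (570 and 486 counts in the IRF-1 libraries, 1334 and 224 in the controls), JUN and FGF19 (98 and 90 counts, then 187 and 45). Their distances, in log2 CPM centred on each gene's mean, were 1.17, 1.34 and 1.45. In the list of other ERK-responsive transcripts, 8 of the 13 genes that averaged 5 CPM or more had a control log2 ratio of at least 1 in size, against 207 of all 10210 such genes. FOS, EGR1, EGR2 and JUN are among these 8. The list was written with earlier results of these data known, so this share is a description and not a test. Of the other pathway lists, 2 of 13 feedback inhibitors and phosphatases and 1 of 3 FGF family genes other than FGF2 had one. None was found among 16 genes of the RAS to ERK cascade, 12 co-receptors and adaptors and 13 other receptor tyrosine kinases. The part of this in the group comparison of DUSP6 was not tested beyond leaving out each library.

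**Figure D3:**
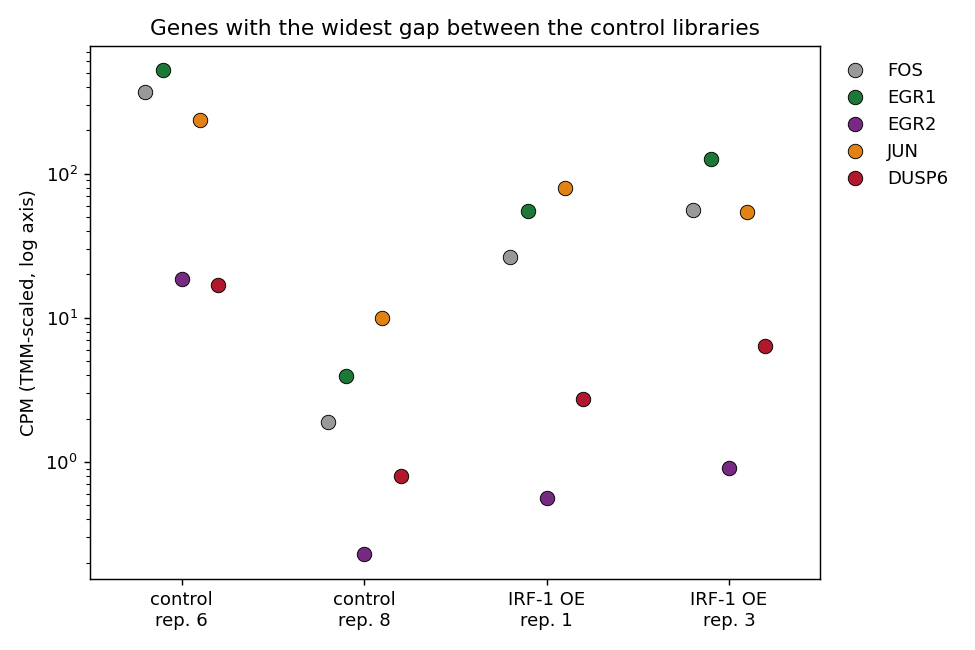
Level in CPM, on a log axis, of DUSP6 and of the 4 other genes with the widest gap between the control libraries among tested genes that averaged 5 CPM or more; each point is 1 library and colours mark genes. For each gene control replicate 6 is the highest library and control replicate 8 the lowest, as with the 262 and 14 counts of DUSP6.

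The receptors and FGF2 did not share this gap. The log2 ratio of control replicate 6 to control replicate 8 was 0.12 for FGFR1, 0.29 for FGFR2, 0.52 for FGFR3, 0.32 for FGFR4, 0.27 for FGF2 and 0.37 for SPRY2. Among the members with few counts it was 0.85 for SPRY4, 0.92 for ETV5 and -0.43 for ETV4. For FGFR1, 71.3% of the 10210 genes had a control ratio at least as large in size, and for FGFR3 13.8% had one. Between the IRF-1 libraries the receptors differed more. The log2 ratio of replicate 1 to replicate 3 was -0.43 for FGFR1, -0.64 for FGFR2, -0.81 for FGFR3 and -1.09 for FGFR4, and the median size over the same genes was 0.15. All 4 receptors were thus lower in IRF-1 replicate 1 than in replicate 3, and for FGFR4 1.07% of the genes had a ratio at least as large in size.

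ETV4 and ETV5 encode ETS transcription factors that FGF and ERK signalling induces in many embryonic tissues. ETV5 (ENSSSCG00000023229, chromosome 13, 123873348 to 123930339, minus strand) had 35 and 9 counts in the IRF-1 libraries and 7 and 0 in the controls. Overexpressing replicate 1 stood above the other libraries, and after scaling replicate 3 lay at 0.433 CPM beside 0.448 CPM in control replicate 6, so the groups overlapped. ETV4 (ENSSSCG00000017379, chromosome 12, 19531603 to 19548300, plus strand) had 2 and 0 counts against 0 and 3, at or under the floor in all 4 libraries, and no fold is given. Neither gene passed the filter. With no filter, ETV5 had a log2 fold change of 2.10 (SE 0.884, adjusted p = 0.0732 in edgeR), which did not pass the threshold. Among the remaining ERK-responsive genes with few counts, the related factor ETV1, named after its values were seen, had 94 and 45 counts in the IRF-1 libraries against 8 and 6 in the controls.

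The genes with the most similar levels over the 4 libraries were also found for the other genes that passed the test, as a description over 4 libraries. Among the genes near FGFR1 were CRISPLD1 (distance 0.064) and NOVA1 (0.0739). NOVA1, a neuronal splicing factor, had 489 and 595 counts in the IRF-1 libraries, below the 837 and 884 of the controls. FGFR2 lay nearest to GPC1 (0.0576), CDAN1 (0.0878) and NCK2 (0.101). GPC1, a cell-surface heparan sulfate proteoglycan, had 926 and 1248 counts against 2137 and 2003. FGFR3 lay nearest to RBM20 (0.132), LYN (0.215) and HSPG2 (0.222). HSPG2, which encodes the heparan sulfate proteoglycan perlecan, had 830 and 1175 counts against 15187 and 12686, and LYN, a SRC family kinase, had 9 and 20 against 285 and 236. In each of these genes, as in the receptor beside it, IRF-1 replicate 1 was the lowest library after scaling.

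Among the genes near FGFR4 were KBTBD6 (distance 0.164) and CTXN1 (0.173). CTXN1 had 248 and 390 counts in the IRF-1 libraries, below the 664 and 576 of the controls. FGF2 lay nearest to DNAJC1 (0.0496), TNIK (0.101) and FGGY (0.104). DNAJC1 had 474 and 352 counts against 574 and 518, so that here, as for FGF2, IRF-1 replicate 3 was the lowest library after scaling. SPRY2 lay nearest to RGS10 (0.11), SERTM1 (0.166) and INPP4B (0.2). RGS10, a regulator of G protein signalling, had 987 and 641 counts against 90 and 79, high in both IRF-1 libraries and low in both controls.

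The rest of the pathway was read from 6 gene lists with 126 genes, of which 113 had a named identifier and 95 were tested. Over these lists 22 genes were lower and 18 were higher, 42.1% of those tested against 29.4% of all genes tested, and the median log2 fold change was -0.21 against -0.0016 over all genes. The lists were chosen with earlier results known, and 95 of 113 identifiers passed the filter, against 13250 of 24358 in the whole count table. The shares called, here and for each list below, were not matched for expression level. Of the FGF family genes other than FGF2, 15 had an identifier, 7 were tested and 4 of these were higher (57.1% called, against 29.4% of all genes tested), with a median log2 fold change of 0.77. FGF12 and FGF14, which encode intracellular relatives that bind sodium channels and are not secreted ligands, were among them. FGF12 had 657 and 476 counts in the IRF-1 libraries against 201 and 282 (log2 fold change 0.77, SE 0.208, adjusted p = 0.0281 in edgeR), and FGF14 had 229 and 221 against 86 and 85 (log2 fold change 0.94, SE 0.27, adjusted p = 0.035). The other genes that passed, FGF16 with 120 and 71 counts against 1 and 0 and FGF1 with 34 and 16 against 3 and 6, were named after their values were seen, and FGF1 passed by a narrow margin (adjusted p = 0.04997 in edgeR). The calls of FGF12 and FGF14 were lost in 3 of the 4 fits that left out 1 library, although the fold changes stayed near these values. That of FGF12 was 0.66 without IRF-1 replicate 1 (adjusted p = 0.205), 0.87 without IRF-1 replicate 3 (0.0682) and 0.61 without control replicate 6 (0.0854), and that of FGF14 was 1.04 without IRF-1 replicate 1 (0.132), 0.83 without IRF-1 replicate 3 (0.203) and 0.85 without control replicate 8 (0.0788).

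Of the co-receptors and adaptors that act beside the FGF receptors 15 were tested, of which 8 were lower and 1 was higher, against 15.5% lower and 13.9% higher over all genes, with a median log2 fold change of -0.58. FLRT3, a membrane protein that binds FGF receptors, had 176 and 280 counts in the IRF-1 libraries against 1133 and 1044 in the controls (log2 fold change -2.69, SE 0.297, adjusted p = 0.000905 in edgeR). FGFRL1, a receptor-like protein without a kinase domain, had 160 and 102 counts against 461 and 291 (log2 fold change -2.02, SE 0.323, adjusted p = 0.00352). FGFBP3, which encodes a carrier protein that releases FGF from the matrix, had 73 and 180 counts against 507 and 293 (log2 fold change -2.09, SE 0.508, adjusted p = 0.0185). FLRT2, a relative of FLRT3, moved the other way with 481 and 316 counts against 105 and 91 (log2 fold change 1.54, SE 0.262, adjusted p = 0.00453). Both control libraries lay on the same side of both IRF-1 libraries in each of these genes. The remaining falls, named after their values were seen, were FLRT1 (log2 fold change -2.66), SHC1 (-1.80), FRS2 (-0.97), SOS2 (-0.62) and SOS1 (-0.58). GRB2 was not called (log2 fold change 0.39, adjusted p = 0.101 in edgeR). Without IRF-1 replicate 1 the log2 fold change of FLRT2 was 1.36 (adjusted p = 0.0529) and that of FGFBP3 was -1.50 (0.0657). FGFBP3 was also at -1.54 without control replicate 6 (0.0536), and at -3.06 without IRF-1 replicate 3 (0.00214).

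In the cascade from RAS to ERK, 17 genes were tested, of which 4 were higher, 1 was lower and 12 were not called. The share called, 29.4%, was that of all genes tested, and the median log2 fold change was -0.04. The summed level of the list was 1122 and 1092 CPM in the IRF-1 libraries and 1192 and 1161 CPM in the controls. RPS6KA2, a ribosomal S6 kinase activated by ERK, had 938 and 365 counts against 76 and 45 (log2 fold change 2.90, SE 0.443, adjusted p = 0.00291 in edgeR). RASGRP1, an exchange factor that activates RAS, had 716 and 410 counts against 114 and 129 (log2 fold change 1.73, SE 0.251, adjusted p = 0.00241). RPS6KA3 had 1132 and 848 counts against 355 and 424 (log2 fold change 0.88, SE 0.163, adjusted p = 0.00657), whereas its relative RPS6KA1 had 661 and 611 counts against 955 and 827 (log2 fold change -0.95, SE 0.18, adjusted p = 0.00683). The remaining call was KSR2, named after its values were seen, with 26 and 35 counts against 2 and 7. Without IRF-1 replicate 1 the log2 fold change was 2.25 for RPS6KA2 (adjusted p = 0.0177), 0.80 for RPS6KA3 (0.0687) and -0.88 for RPS6KA1 (0.0699).

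Of the feedback inhibitors and phosphatases other than the members 20 were tested, of which 5 were higher, 2 were lower and 13 were not called. The share called was 35%, near the 29.4% of all genes, with a median log2 fold change of -0.03. SPRED2, a Sprouty-related inhibitor of RAF activation, had 1573 and 1157 counts in the IRF-1 libraries against 281 and 356 in the controls (log2 fold change 1.63, SE 0.167, adjusted p = 0.000694 in edgeR). Its relative SPRED1 had 805 and 643 counts against 347 and 363 (log2 fold change 0.56, SE 0.168, adjusted p = 0.0406). DUSP16, a phosphatase that acts mainly on JNK and p38, had 1088 and 847 counts against 389 and 263 (log2 fold change 1.08, SE 0.245, adjusted p = 0.0141). The other genes of this list that rose were SPRY1, with 189 and 85 counts against 12 and 14, and DUSP10, with 63 and 30 against 3 and 1, both named after their values were seen. SPRY1 and SPRY2 were thus both high in the IRF-1 libraries and low in the controls, while SPRY4 overlapped. ERRFI1, an inhibitor of the EGF receptor, had 71 and 56 counts against 217 and 181 (log2 fold change -2.12, SE 0.298, adjusted p = 0.00207), and RASA3, a GTPase-activating protein for RAS, had 758 and 955 against 1622 and 1575 (log2 fold change -1.34, SE 0.21, adjusted p = 0.00322). The SPRED1 call was lost with any library left out (log2 fold change between 0.52 and 0.61, adjusted p between 0.0539 and 0.23), and that of DUSP16 without IRF-1 replicate 1 (1.03, adjusted p = 0.0806).

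Of 21 other ERK-responsive transcripts tested, 4 were lower, 1 was higher and 16 were not called, a share called of 23.8% against 29.4% of all genes. The median log2 fold change of -1.29 includes FOS, EGR1, EGR2 and JUN, none of them called, whose controls lay on either side of the IRF-1 libraries. EPHA2, an ephrin receptor, had 155 and 144 counts in the IRF-1 libraries against 499 and 268 in the controls (log2 fold change -1.84, SE 0.351, adjusted p = 0.00716 in edgeR). The value was -1.22 without control replicate 6 (adjusted p = 0.0139) and -1.76 without IRF-1 replicate 1 (adjusted p = 0.0518). The other genes that passed, named after their values were seen, were MYC with 27 and 39 counts against 152 and 72, IER3 with 21 and 16 against 162 and 74, PLAUR with 1 and 3 against 35 and 12, and, in the other direction, ETV1. The reprogramming cassette also carries MYC, and its transcripts cannot be told apart here from those of the endogenous gene. By RT-PCR against wild-type piPSCs, the study saw no obvious change in endogenous cMYC or in the exogenous factors with IRF-1 overexpressed. The summed level of the list was 2030 CPM in control replicate 6 and 556 CPM in control replicate 8, with 886 and 922 CPM in the IRF-1 replicates 1 and 3 between them.

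Other receptor tyrosine kinases that feed RAS also changed. Of 15 tested 7 were lower and 3 were higher (66.7% called, against 29.4% of all genes), with a median log2 fold change of -1.02, so that falls were not confined to the FGF receptors. DDR1, a collagen receptor, had 2651 and 4049 counts in the IRF-1 libraries against 9264 and 8572 in the controls (log2 fold change -1.85, SE 0.27, adjusted p = 0.00245 in edgeR). ERBB2 had 200 and 327 counts against 996 and 814 (log2 fold change -2.22, SE 0.32, adjusted p = 0.00232), and NTRK2, a neurotrophin receptor, had 363 and 536 against 1395 and 2307 (log2 fold change -2.46, SE 0.298, adjusted p = 0.0012). In the other direction NTRK3 had 3119 and 2059 counts against 158 and 177 (log2 fold change 3.47, SE 0.181, adjusted p = 9.79e-05). KIT, the receptor for stem cell factor, had 315 and 184 counts against 27 and 48 (log2 fold change 2.26, SE 0.361, adjusted p = 0.00352), and INSR, the insulin receptor, had 918 and 574 against 294 and 297 (log2 fold change 0.85, SE 0.205, adjusted p = 0.0181). The groups did not overlap in any of these 6 genes, and the INSR call was lost without IRF-1 replicate 1 (log2 fold change 0.63, adjusted p = 0.178).

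Marker genes of other cell types moved with the groups, and are given beside the 15.5% lower and 13.9% higher of all genes tested. Of 12 trophoblast markers 8 were tested, 5 being lower and 1 higher, the median log2 fold change was -2.75, and their summed level was 320 and 1173 CPM in the IRF-1 replicates 1 and 3 against 15691 and 9625 CPM in the controls. KRT8, a keratin of simple epithelia, was the most abundant of them in CPM and in FPKM, with 6213 and 21095 counts against 187722 and 130983. The transcription factor genes CDX2 and HAND1 had 0 counts in all 4 libraries, while others of the list, named after their values were seen, were present. TFAP2C had 59 and 66 counts against 321 and 326, TEAD4 had 222 and 328 against 1382 and 1219, GATA3 had 273 and 155 against 178 and 110, and TFAP2A, the gene that rose, had 769 and 890 against 45 and 47. Of 16 fibroblast markers 14 had an identifier and 9 were tested, 4 being lower and 2 higher, and the median was -1.60. Their summed level was 1361 and 1111 CPM against 1472 and 1374 CPM, or 213 and 174 FPKM against 244 and 218 FPKM, with VIM as the most abundant on both scales and none at 0 in all libraries. Changes in less abundant genes went both ways, as in PDGFRB with 28 and 62 counts against 1966 and 978 and PRRX1 with 1399 and 741 against 245 and 250, both named after their values were seen. Of 12 neural markers 10 had an identifier and 9 were tested, 4 being higher and 2 lower, and the median was 1.23. Their summed level was 1187 and 851 CPM against 909 and 794 CPM, where the groups overlapped, with NCAM1 as the most abundant and none at 0 in all libraries. Per length the sum was 353 and 187 FPKM against 125 and 113 FPKM, with both IRF-1 libraries above both controls. The most abundant gene per length differed between the libraries. It was NCAM1 in control replicates 6 and 8, at 61.3 and 52.1 FPKM against 31.8 and 33.3 FPKM for STMN2. In IRF-1 replicate 1 TUBB3 was at 144 FPKM beside STMN2 at 143 FPKM, and in IRF-1 replicate 3 STMN2 led at 67.7 FPKM. Here too changes went both ways, as in TUBB3 with 8726 and 2443 counts against 97 and 185 and NES with 508 and 423 against 1697 and 1082, both named after their values were seen. Of 17 pluripotency markers 8 had an identifier, 6 were tested and 3 were lower, with a median of -0.57. Their summed level was 1314 and 1348 CPM against 1544 and 1709 CPM, with DNMT3B as the most abundant, and 382 and 423 FPKM against 944 and 769 FPKM, with LIN28A as the most abundant. The genes that fell, named after their values were seen, were LIN28A, ESRRB with 31 and 37 counts against 502 and 402, and CDH1 with 631 and 1539 against 3753 and 4062. The part of these differences in cell state or composition in the levels of the FGF receptors, FGF2 and SPRY2 was not tested.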

How the data were processed

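For each of the 4 RNA-seq libraries the authors deposited raw gene counts, unpooled and not normalized, with the exon length of every gene in bases. Per the methods, HISAT2 mapped the reads to Sus scrofa 11.1 and featureCounts (version 1.6.4) counted them; the annotation release, strand setting and handling of multi-mapped reads were not stated. Symbols came from a reference table of Ensembl names, which named 14692 of the identifiers. The ChIP-Seq libraries were not analysed here.

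Counts were analysed with edgeR 4.0.16 in R 4.3.3 (TMM factors, filterByExpr, quasi-likelihood test) and p-values were adjusted by Benjamini-Hochberg over 13250 genes. The SE is the size of the log2 fold change over the square root of F. CPM and FPKM are TMM-scaled. Alternatives were other scalings, filters and tests (DESeq2 1.42.0, limma-voom 3.58.1), a log2 limit of 1, removal of mitochondrial genes and of the 10 genes with the highest counts, and each library left out.

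The members and lists were chosen with earlier results of these data known. Named genes were the members, IRF1, up to 3 called genes with the largest rise and fall per pathway list with a mean of at least 5 CPM, and, for DUSP6 and each called member, the 3 genes outside the members nearest in centred log2 CPM (0.5 CPM added, Euclidean distance). Others were named after their values were seen. A few genes that meet this rule are left out here.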

Additional observations from a re-analysis of the deposited data

How the results depend on the processing

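With other scalings, filters or tests and all libraries kept, 5 of the 10 genes were lower and 1 was higher, and with a log2 fold change of at least 1 required 4 were lower and 1 was higher. Leaving out each library in turn gave between 4 and 6 lower and between 1 and 2 higher, the second being DUSP6 without control replicate 6. Over all genes the fits that left out a library gave between 845 and 2165 lower and between 788 and 1995 higher, the log2 limit gave 1410 lower and 1141 higher, and the fit with no filter, over 17823 genes, gave 2384 lower and 2308 higher. With a library left out the group with 1 library is assumed to vary like the other group, and fewer libraries lower the power.

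The log2 fold change of DUSP6 turned from -0.94 to 0.22 with limma-voom and lay between -1.88 (without control replicate 8) and 2.50 (without control replicate 6) with a library left out. That of SPRY4, 0.02, lay between -0.49 (without control replicate 8) and 0.79 (without control replicate 6), and at -0.08 without IRF-1 replicate 1. Neither gene was called with all libraries, and the cause was not tested beyond the counts of these libraries. Of the 29 genes called among the members, IRF1 and the list genes named by rule, 0 changed direction in the 12 alternatives that give a value per gene, 0 lost the call in the 8 of these that keep all libraries, and 12 lost it with a library left out. A log2 limit of 1 would drop 7 of the 29, FGF2 among them. Genes named after their values were seen are not in these counts. No paired analysis was possible because the replicate numbers are not shared between the groups. Depth limits ETV4, ETV5 and SPRY4, each with at most 35 counts in a library.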
